A study of Mus musculus with 6 samples.

Results

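The genes described here are 10 genes of the NRF2 pathway and of antioxidant defence, chosen by name: Nfe2l2, Keap1, Nqo1, Hmox1, Gclc, Gclm, Slc7a11, Txnrd1, Srxn1 and Gsta4. All 10 were found by Ensembl identifier among the 53801 genes of the deposited count tables, and all 10 had enough reads to be among the 14531 genes tested. Bulk RNA sequencing was performed on MC3T3-E1, a mouse pre-osteoblast cell line, in 6 libraries. Every cell population carried a lentiviral vector with the ZsGreen1 and puromycin resistance genes and had been kept in 5 μg/ml puromycin for 7 days. The 3 control libraries came from cells with a scrambled non-silencing RNA, and the 3 Hdac4 knockdown libraries from cells with an Hdac4 shRNA, which the labels name only as Hdac4-shRNA and which the study's account identifies as Hdac4-shRNA3. The replicates of a group are described as independent RNA samples, and no source says whether they came from separate infections or cultures, so the p-values measure the spread between these RNA samples.

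NRF2, encoded by Nfe2l2, is a transcription factor that pairs with small MAF proteins on the antioxidant response element and switches on enzymes that detoxify quinones, aldehydes and peroxides. In unstressed cells KEAP1 holds NRF2 in the cytoplasm and hands it to the CUL3 ubiquitin ligase, and oxidants or electrophiles release it by modifying cysteines of KEAP1, so that the pathway is known to be switched mainly at the level of the NRF2 protein rather than of its mRNA. In bone cells, NRF2 and its targets are best known for limiting oxidative stress during differentiation and remodelling.

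Between 29096544 and 31651826 reads were counted on genes in each library. The knockdown was visible in Hdac4 itself, with 1243, 1204 and 1136 reads in the control libraries against 950, 927 and 887 in the knockdown libraries, which left 73.6% of the control level (log2 fold change -0.44, SE 0.057, edgeR adjusted p = 8.98e-07). Gm26720 overlaps 3536 of its 15813 exon bases. The groups differed broadly: at an adjusted p-value below 0.05, 38% of all genes tested were called higher and 37.1% lower in the knockdown libraries, and in 76.8% the groups did not overlap. Among markers of the osteoblast lineage, 6 of 9 were tested, of which 5 were higher and 1 lower in knockdown libraries, and their summed level ranged from 4770 to 4783 CPM in control and from 21460 to 22310 CPM in knockdown libraries. Most of the knockdown sum came from Col1a1, which rose from 338 ± 14.4 to 11010 ± 326 CPM, and Col1a2, from 1213 ± 22.5 to 8572 ± 163 CPM (SD, n = 3). Spp1 fell from 3154 ± 30.9 to 2046 ± 36.1 CPM (SD, n = 3). Twist1 and Sp7 also rose, from 2.03 to 36.3 CPM and from 0.145 to 2.71 CPM on average. Runx2 rose 1.14-fold, with overlap between the groups. Alpl, Bglap and Ibsp, the markers of this list that were not tested, had at most 12 counts in any library. Among 17 markers of other cell types, 7 were tested, with 2 higher and 3 lower, and the summed level was 247 to 258 CPM in control and 139 to 153 CPM in knockdown libraries. The neuronal tubulin Tubb3 fell from 165 ± 2.23 to 77.3 ± 5.48 CPM, and the muscle factors Myod1 and Myog from 67.9 ± 3.62 to 8.96 ± 0.835 CPM and from 16.8 ± 0.475 to 3.94 ± 0.932 CPM (SD, n = 3). The cartilage collagen Col2a1 rose from 0.827 ± 0.179 to 51.1 ± 2.40 CPM and the endothelial marker Pecam1 from 0.214 ± 0.0189 to 2.38 ± 0.095 CPM (SD, n = 3). Of the other markers of macrophages, nerve and cartilage, Adgre1, Snap25 and Acan had no count in any library. Cd68, also a macrophage marker, was counted in every library and was not called. It was at 1.775 ± 0.619 CPM in control and 2.05 ± 0.292 CPM in knockdown libraries (SD, n = 3). The part of these differences between the populations in the results below was not tested, and, in bulk RNA, fewer cells expressing a gene and less RNA per cell cannot be told apart.

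The antioxidant response element is the DNA sequence through which NRF2 reaches its targets, so the promoters of the 10 genes were searched for its core, TGACNNNGC, and for TGAGTCA, the site of the related AP-1 factors, on both strands. The letters of these motifs coincide where GC precedes TGAGTCA. RefSeq promoter windows (GRCm38.p6, from 250 bases before to 50 bases after the start of transcription) were matched for 7 of the 10 genes, in 9 windows because Txnrd1 has several start sites. Windows for Hmox1, Gclc and Gsta4 were not matched. The core was present in 4 of the 9 windows, those of Nfe2l2, Gclm, Srxn1 and of a start site of Txnrd1, against 12.4% of all 32851 windows. TGAGTCA was found only in the window of Srxn1, which held it at 2 places, against 5.2% of all windows. The stretches that hold these motifs upstream of the start, printed because they carry the element by which the pathway is defined, read as follows 5′ to 3′ on the strand of the gene, with the motif in capitals. Bases are counted with the start base as the first, without a base 0. In Gclm and Txnrd1 the core lies on the opposite strand and therefore reads as its reverse complement.
Nfe2l2, chr2:75704854-75704913, minus strand, bases -250 to -191 from the start: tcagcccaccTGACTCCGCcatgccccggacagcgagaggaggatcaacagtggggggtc
Gclm, chr3:122245397-122245456, plus strand, bases -160 to -101: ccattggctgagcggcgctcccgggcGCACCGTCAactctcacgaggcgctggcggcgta
Txnrd1, chr10:82859088-82859147, plus strand, bases -118 to -59: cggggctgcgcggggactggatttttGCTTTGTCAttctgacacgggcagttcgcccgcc
Srxn1, chr2:152105396-152105503, plus strand, bases -128 to -21: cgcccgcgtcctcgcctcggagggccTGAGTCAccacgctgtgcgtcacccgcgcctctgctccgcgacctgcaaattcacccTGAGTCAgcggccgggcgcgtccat
The core as searched, TGACNNNGC, lies after the start in the window of Srxn1, at bases 29 to 37. A core that begins with TGAG in place of TGAC was not searched. The TGAGTCA of Srxn1 at bases -45 to -39 is followed by gc, so its letters would fit such a core upstream of the start. A match describes letters only. The windows of Nqo1, Keap1 and Slc7a11 did not hold the core, which says nothing about elements elsewhere.

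The 10 genes differed in direction and in size of change. Nqo1, Slc7a11 and Hmox1 rose 3.24- to 4.76-fold in the knockdown libraries, Gclm, Srxn1 and Gclc rose 1.46-fold or less, Gsta4 fell to 21.6% and Txnrd1 to 70.9% of the control level, and the mRNAs of the regulators Nfe2l2 and Keap1 were at 93.7% and 96.9% of it, of which the first narrowly passed the test and the second did not. In all, 6 of the 10 were called higher, 3 lower and 1 was not called, against 38% and 37.1% of all genes tested. With a log2 fold change of at least 1 in addition, 3 were higher and 1 lower, where 16.5% and 10.6% of all genes were. The median log2 fold change was 0.27 for the 10 genes and 0.014 for all genes tested. The groups did not overlap for 9 of the 10, against 76.8% of all genes. Within a group, the replicates of a gene differed by a coefficient of variation of 0.608% to 6.02%.

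**Figure D1:**
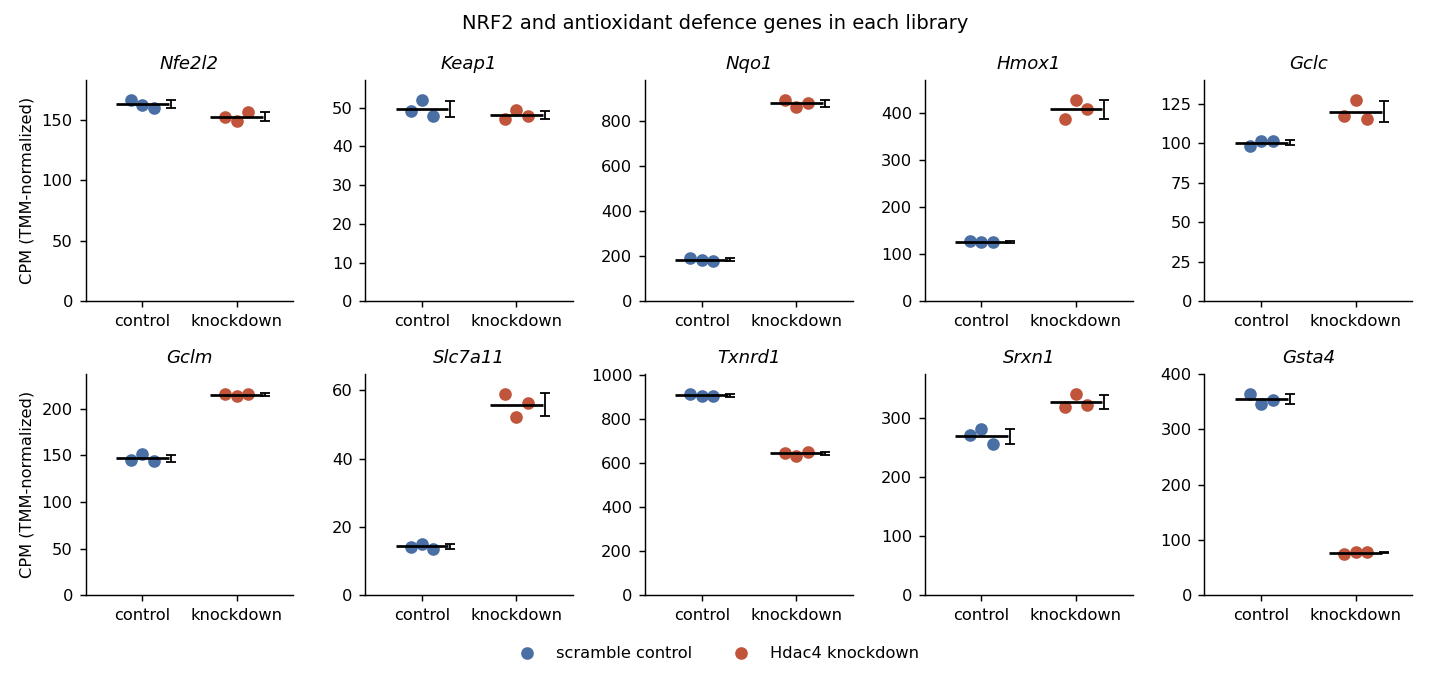
Level of each of the 10 genes (CPM, normalized by TMM) in the 3 control and 3 Hdac4 knockdown libraries; points are libraries, lines means and error bars SD (n = 3), and each axis starts at 0. The groups overlap only for Keap1, with 47.9 to 52.0 CPM in control and 47.0 to 49.3 CPM in knockdown libraries.

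Nfe2l2 (ENSMUSG00000015839, chromosome 2, 75675513 to 75704641) encodes NRF2 itself. Its level was 166, 162 and 160 CPM in the control libraries and 152, 149 and 156 CPM in the knockdown libraries. The knockdown libraries all lay below the control libraries, but by a gap of only a few CPM. The means were 163 ± 3.31 and 152 ± 3.69 CPM (SD, n = 3), a log2 fold change of -0.09 (SE 0.041, 95% interval -0.18 to -0.0081) that passed the threshold narrowly (edgeR adjusted p = 0.0452). Upper quartile normalization took it to -0.0053 (adjusted p = 0.914) and library size alone to -0.038 (adjusted p = 0.418). The call was also lost on leaving out any library but control replicate 3, with log2 fold changes of -0.089 without control replicate 1, -0.11 without control replicate 2, and -0.083, -0.077 and -0.11 without knockdown replicates 1, 2 and 3.

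Keap1 (ENSMUSG00000003308, chromosome 9, 21229730 to 21239361) encodes the sensor that keeps NRF2 short-lived. It was measured at 49.1, 52.0 and 47.9 CPM in control libraries and at 47.0, 49.3 and 48.0 CPM in knockdown libraries. The values of the groups were interleaved. The log2 fold change was -0.05 (SE 0.053, edgeR adjusted p = 0.444) with a 95% interval of -0.16 to 0.066, and its sign turned positive with upper quartile normalization (0.044) and with library size alone (0.011). Keap1 shares 510 of its 4693 exon bases with Gm16754, and reads without strand cannot be split between them. Within each library, Nfe2l2 had 3.39, 3.12 and 3.34 times the counts of Keap1 in control and 3.23, 3.02 and 3.26 times in knockdown libraries, a log2 difference of -0.049 (two-sided exact permutation test, p = 0.4, adjusted p = 0.4 over 6 ratios).

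Nqo1 (ENSMUSG00000003849, chromosome 8, 107388225 to 107403206) encodes NAD(P)H quinone dehydrogenase, which reduces quinones by a pair of electrons at once and is the most widely used readout of NRF2 activity. Its level was 192, 182 and 181 CPM in control libraries and 895, 864 and 881 CPM in knockdown libraries. Every knockdown library was far above every control library. The means of 185 ± 5.98 and 880 ± 15.2 CPM (SD, n = 3) differed 4.76-fold, a log2 fold change of 2.25 (SE 0.04, edgeR adjusted p = 3.56e-20), higher than that of 93.1% of all genes tested. An exact permutation test of 3 libraries against 3 cannot go below p = 0.1, which Nqo1 and the other 8 genes without overlap reached.

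Hmox1 (ENSMUSG00000005413, chromosome 8, 75093621 to 75100589) encodes haem oxygenase 1, which opens the haem ring to release biliverdin, iron and carbon monoxide, and which the repressor BACH1 silences until haem rises. It was at 127, 126 and 125 CPM in control libraries and at 388, 428 and 408 CPM in knockdown libraries. The control libraries were nearly equal, and the knockdown libraries spread more widely but stayed well apart from them. The level rose 3.24-fold, from 126 ± 1.19 to 408 ± 19.9 CPM (SD, n = 3), with a log2 fold change of 1.70 (SE 0.043, edgeR adjusted p = 1.08e-17). Bach1 itself fell from 61.8 ± 3.50 to 46.6 ± 2.39 CPM (SD, n = 3), a log2 fold change of -0.41 (SE 0.057, edgeR adjusted p = 2.40e-06). The counts of Bach1 relative to Nfe2l2 went from 0.371, 0.360 and 0.410 in control to 0.324, 0.298 and 0.297 in knockdown libraries, without overlap (two-sided exact permutation test, p = 0.1, adjusted p = 0.12 over 6 ratios).

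Slc7a11 (ENSMUSG00000027737, chromosome 3, 49892526 to 50443614) encodes xCT, the subunit of the cystine/glutamate exchanger that brings in the cystine from which glutathione is made. Per length of exon it had the lowest level of the 10 genes in both groups, and it was counted 435, 451 and 386 times in control and 1826, 1686 and 1691 times in knockdown libraries. After normalization these were 14.2, 15.1 and 13.5 CPM against 59.0, 52.3 and 56.2 CPM, and the groups stood apart. The mean rose 3.91-fold, from 14.3 ± 0.764 to 55.8 ± 3.36 CPM (SD, n = 3; log2 fold change 1.97, SE 0.067, edgeR adjusted p = 1.08e-15). Slc3a2, which encodes the heavy chain that carries xCT and other transporters to the membrane, rose as well, from 152 ± 4.52 to 360 ± 13.9 CPM (SD, n = 3; log2 fold change 1.25). Slc7a11 rose by more than its partner: its counts were 0.0909, 0.102 and 0.0903 of those of Slc3a2 in control and 0.169, 0.139 and 0.158 in knockdown libraries, 1.64 times the control ratio (two-sided exact permutation test, p = 0.1, adjusted p = 0.12).

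Glutamate-cysteine ligase performs the limiting step of glutathione synthesis. Its catalytic subunit is encoded by Gclc (ENSMUSG00000032350, chromosome 9, 77754535 to 77794485) and its modifier subunit, which raises the affinity for glutamate, by Gclm (ENSMUSG00000028124, chromosome 3, 122245557 to 122270732). Gclm was at 145, 151 and 145 CPM in control and 216, 214 and 216 CPM in knockdown libraries, a 1.46-fold rise with the tightest knockdown replicates of the 10 genes (log2 fold change 0.55, SE 0.04, edgeR adjusted p = 2.03e-10). Gclc was at 98.6, 101 and 101 CPM in control and 117, 127 and 115 CPM in knockdown libraries, a 1.20-fold rise (log2 fold change 0.26, SE 0.047, edgeR adjusted p = 5.58e-05). In both genes the knockdown libraries lay above the control libraries. The modifier subunit gained on the catalytic subunit: the ratio of Gclc to Gclm counts went from 0.679, 0.670 and 0.700 to 0.543, 0.596 and 0.535, a log2 difference of -0.29 (two-sided exact permutation test, p = 0.1, adjusted p = 0.12). Gclm shares 296 of its 6291 exon bases with Gm17494 and Gm6061, and 4.58% of the 50-base stretches of its transcripts occur in transcripts of other genes.

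**Figure D2:**
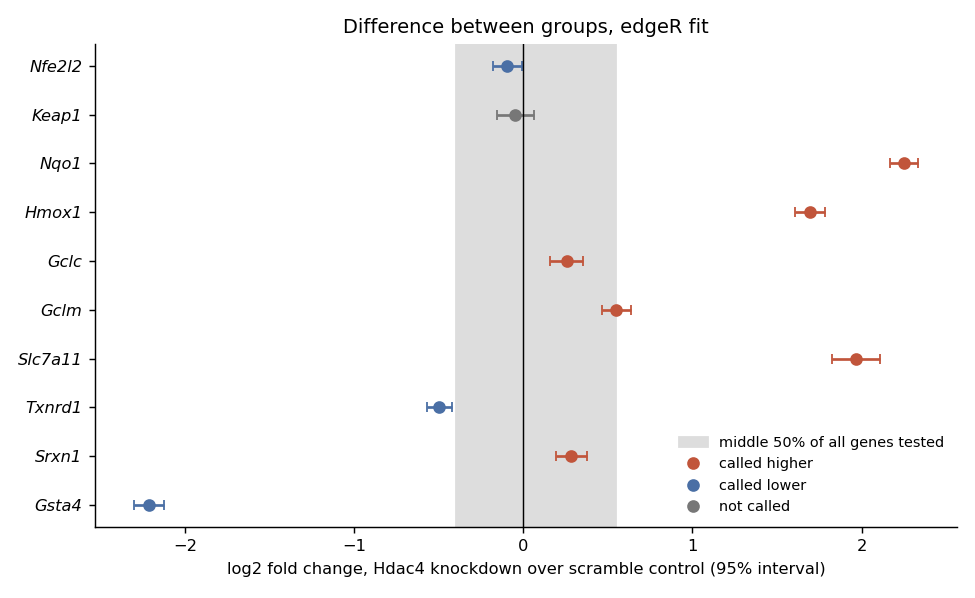
Log2 fold change of each of the 10 genes, Hdac4 knockdown over control, from the edgeR fit (points) with its 95% interval (bars); red points were called higher, blue lower, grey not called, and the grey band spans the middle 50% of all genes tested, from -0.40 to 0.55. Nqo1 (2.25), Slc7a11 (1.97) and Hmox1 (1.70) lie far to the right of the band and Gsta4 (-2.21) far to its left, while the small values of Nfe2l2 and Keap1 depend on the normalization, which turns the sign of Keap1.

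Txnrd1 (ENSMUSG00000020250, chromosome 10, 82833951 to 82897712) encodes the cytosolic thioredoxin reductase, a selenoprotein that keeps thioredoxin reduced with electrons from NADPH. It had the highest counts of the 10 genes in the control libraries and moved against most of them. Its level was 915, 905 and 903 CPM in control and 647, 633 and 650 CPM in knockdown libraries. All knockdown libraries were below all control libraries, with little spread in either group. The log2 fold change was -0.50 (SE 0.035, edgeR adjusted p = 1.35e-10). Txn1, the thioredoxin it reduces, rose slightly, from 587 ± 30.9 to 685 ± 18.6 CPM (SD, n = 3; log2 fold change 0.22, edgeR adjusted p = 8.60e-05). The ratio of Txnrd1 to Txn1 counts therefore fell from 1.47, 1.58 and 1.59 to 0.976, 0.907 and 0.939, or to 0.608 times the control ratio (two-sided exact permutation test, p = 0.1, adjusted p = 0.12).

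Srxn1 (ENSMUSG00000032802, chromosome 2, 152105516 to 152111376) encodes sulfiredoxin, which rescues peroxiredoxins that peroxide has over-oxidized. It was at 271, 280 and 255 CPM in control and 319, 341 and 322 CPM in knockdown libraries. The lowest knockdown library was above the highest control library. The rise was 1.22-fold (log2 fold change 0.28, SE 0.044, edgeR adjusted p = 8.58e-06), smaller than that of Prdx1, its main substrate, which rose from 634 ± 17.4 to 932 ± 14.8 CPM (SD, n = 3; log2 fold change 0.56, SE 0.037). The ratio of Srxn1 to Prdx1 counts accordingly went from 0.418, 0.439 and 0.415 to 0.348, 0.363 and 0.342 (two-sided exact permutation test, p = 0.1, adjusted p = 0.12). Of the 50-base stretches of Prdx1 transcripts, 8.81% occur in other genes, and its counts are less certain for that reason.

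**Figure D3:**
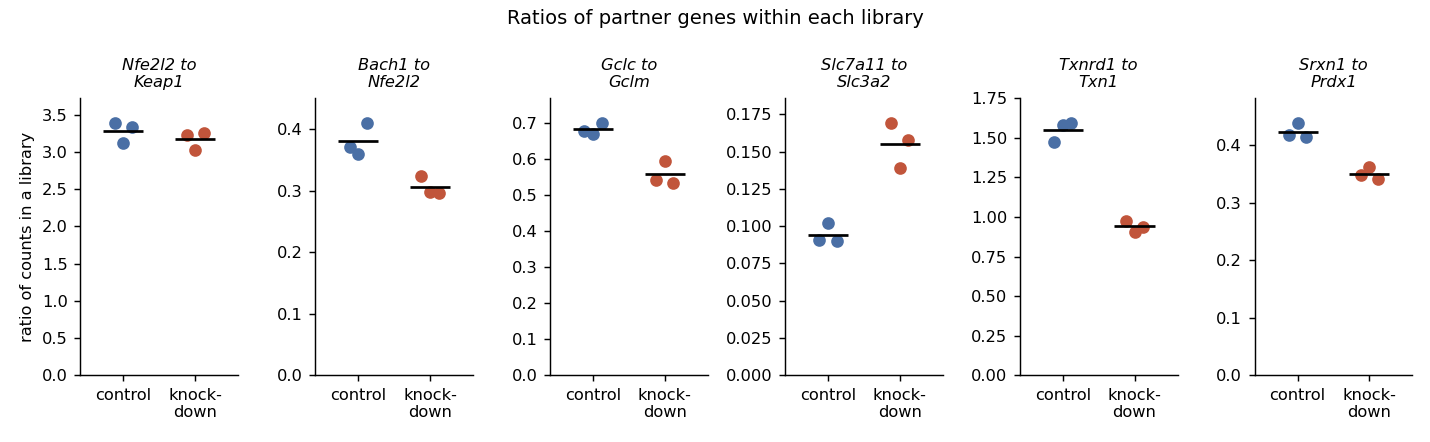
Ratio of the counts of partner genes within each library, in 3 control and 3 Hdac4 knockdown libraries; points are libraries, lines means, and each axis starts at 0. The groups are apart in 5 of the 6 ratios and overlap for Nfe2l2 to Keap1, at 3.12 to 3.39 against 3.02 to 3.26.

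Gsta4 (ENSMUSG00000032348, chromosome 9, 78182774 to 78209349) encodes the glutathione S-transferase that conjugates 4-hydroxynonenal, an aldehyde from peroxidized lipids, and has been described as a target of NRF2. It showed the opposite change to Nqo1, of nearly the same size. Its level was 364, 346 and 354 CPM in control and 75.3, 77.1 and 77.4 CPM in knockdown libraries, so that the highest knockdown library was far below the lowest control library. The means were 355 ± 9.17 and 76.6 ± 1.17 CPM (SD, n = 3), a log2 fold change of -2.21 (SE 0.042, edgeR adjusted p = 9.76e-20), and only 3.62% of all genes tested had a lower value. No 50-base stretch of Gsta4 occurs in another gene's transcripts. Gsta4 lies 388 kb from Gclc on chromosome 9, which changed in the other direction.

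Other glutathione S-transferases differed in direction. Of 24 further genes of this kind, 18 were tested, with 6 called higher, 9 lower and 3 not called, against 38% higher and 37.1% lower among all genes, and their median was -0.27 on the log2 scale. Per length of exon, Gsta4 had the highest level of these genes in the control libraries, at 280 ± 7.25 RPKM (SD, n = 3), and 60.5 ± 0.928 RPKM in knockdown libraries. Its neighbours on chromosome 9, Gsta1 (78230656 to 78242684) and Gsta2 (78331018 to 78355788), fell even further, Gsta1 from 9.59 ± 1.15 to 0.954 ± 0.182 CPM (log2 fold change -3.32, edgeR adjusted p = 8.05e-13) and Gsta2 from 37.3 ± 2.69 to 4.22 ± 0.386 CPM (log2 fold change -3.14, edgeR adjusted p = 7.63e-17; SD, n = 3). Of the 50-base stretches of their transcripts, 90.5% of those of Gsta1 and 49.8% of those of Gsta2 occur in other genes, each other included, so that the counts of both, and of Gsta1 above all, are uncertain. In the other direction, Gsto1, of the omega class, rose from 192 ± 1.54 to 304 ± 6.59 CPM (log2 fold change 0.66) and Gstp2 from 2.38 ± 0.281 to 5.30 ± 0.615 CPM (SD, n = 3; log2 fold change 1.16), the latter sharing 54.3% of its stretches with other genes. Gsta3, also of the alpha class, rose from 0.305 ± 0.066 to 3.43 ± 0.232 CPM (SD, n = 3; log2 fold change 3.48). Gstt1 and Gstt3 had log2 fold changes of 2.99 and 1.66. These 3 genes had at most 17 counts in any control library.

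**Figure D4:**
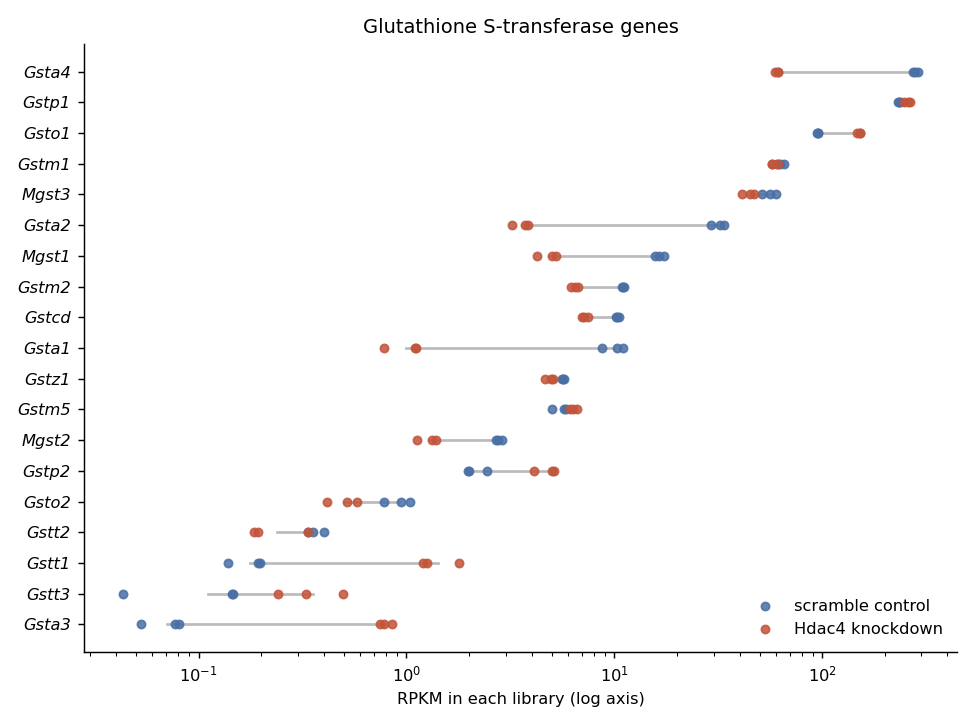
Level per kilobase of exon (RPKM, log axis) of Gsta4 and the 18 other tested glutathione S-transferase genes in each library, in order of the control mean; blue points are control and red points Hdac4 knockdown libraries, and grey lines join the means. Gsta4 goes from 280 to 60.5 RPKM, and Gsta2 and Gsta1 also shift to the left, while Gsto1 shifts to the right.

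Ordered by level per length, the 10 genes changed places. In the control libraries the order was Gsta4 (280 RPKM), Txnrd1 (128), Nqo1 (119), Srxn1 (95.3), Hmox1 (72.0), Nfe2l2 (42.9), Gclc (26.7), Gclm (23.4), Keap1 (10.6) and Slc7a11 (1.03). In the knockdown libraries it was Nqo1 (567 RPKM), Hmox1 (233), Srxn1 (116), Txnrd1 (90.8), Gsta4 (60.5), Nfe2l2 (40.1), Gclm (34.2), Gclc (31.9), Keap1 (10.3) and Slc7a11 (4.01). Neighbours in either order did not overlap in their 3 libraries, although the ranges of Gclm (34.0 to 34.4 RPKM) and Gclc (30.6 to 33.9 RPKM) nearly touched in the knockdown libraries. The order also rests on the annotated exon lengths, whose uncertainty the spread between libraries does not measure. By CPM, without division by length, Gclm was above Gclc in both groups, at 147 against 100 in control and 215 against 120 in knockdown libraries.

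The genes that control NRF2 turned both ways. Of 16 such genes, 14 were tested, 5 called higher and 6 lower, against 38% and 37.1% of all genes, and the median log2 fold change of -0.026 turned to 0.063 with upper quartile normalization. Among the small MAF partners, Mafk rose from 29.6 ± 1.02 to 57.1 ± 2.23 CPM (log2 fold change 0.95) and Maff fell from 60.6 ± 1.29 to 19.4 ± 1.16 CPM (SD, n = 3; log2 fold change -1.64, edgeR adjusted p = 3.03e-15). Mafg, which had the highest level of these partners, was not called. It was at 134.5 ± 5.75 CPM in control and 131.9 ± 2.93 CPM in knockdown libraries (SD, n = 3; log2 fold change -0.029, edgeR adjusted p = 0.566). Btrc, which encodes the alternative ubiquitin ligase adaptor for NRF2, rose from 25.7 ± 1.96 to 48.2 ± 0.402 CPM (log2 fold change 0.91), and Palb2, whose protein also binds KEAP1, fell from 9.68 ± 0.432 to 6.08 ± 0.311 CPM (SD, n = 3; log2 fold change -0.67).

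Among genes of glutathione supply and recycling, 10 of 17 tested were called higher and 5 lower, against 38% and 37.1% of all genes, and the median change was 0.33 on the log2 scale. The endoplasmic reticulum peroxidases Gpx7 and Gpx8 moved apart, Gpx7 from 0.898 ± 0.235 to 21.1 ± 0.949 CPM (SD, n = 3; log2 fold change 4.54, edgeR adjusted p = 1.57e-16) and Gpx8 from 252 ± 5.03 to 112 ± 5.27 CPM (log2 fold change -1.18, edgeR adjusted p = 4.29e-15). Ggt7, of the gamma-glutamyltransferase family, rose from 2.22 ± 0.149 to 11.5 ± 1.24 CPM (log2 fold change 2.36), and glutaredoxin, Glrx, fell from 23.5 ± 1.32 to 14.3 ± 0.337 CPM (SD, n = 3; log2 fold change -0.72).

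Of 20 thioredoxin, peroxiredoxin, superoxide dismutase and catalase genes, 9 were called higher and 10 lower, against 38% and 37.1% of all genes (median log2 fold change -0.12). The largest rise was that of Sod3, the extracellular superoxide dismutase, from 2.40 ± 0.24 to 97.6 ± 1.00 CPM (log2 fold change 5.35, SE 0.076, edgeR adjusted p = 1.28e-21), whereas the cytosolic Sod1 fell from 187 ± 5.32 to 131 ± 12.3 CPM (SD, n = 3; log2 fold change -0.51). The methionine sulfoxide reductases Msrb2 and Msra had log2 fold changes of 1.05 and -0.54.

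Of 12 tested genes of the pathways that supply NADPH to these enzymes, 4 were called higher and 6 lower, against 38% and 37.1% of all genes, and the median change was -0.051 on the log2 scale, which turned to 0.039 with upper quartile normalization. Taldo1 and Tkt, of the non-oxidative branch of the pentose phosphate pathway, which makes no NADPH itself, rose from 209 ± 5.27 to 373 ± 13.1 CPM and from 126 ± 4.16 to 212 ± 7.19 CPM, with log2 fold changes of 0.83 and 0.74. Idh1, the cytosolic isocitrate dehydrogenase, and Me2, a mitochondrial malic enzyme, fell from 95.7 ± 3.62 to 45.0 ± 2.90 CPM and from 121 ± 2.26 to 64.9 ± 3.92 CPM (SD, n = 3; log2 fold changes -1.09 and -0.90). Me1, the other malic enzyme of the list, rose from 99.2 ± 3.07 to 120 ± 5.02 CPM (SD, n = 3; log2 fold change 0.27, edgeR adjusted p = 2.47e-05). The genes of the oxidative branch, which does make NADPH and which are named here after their values were seen, had log2 fold changes of 0.21 for G6pdx, which was called higher, and of 0.01 for Pgls and 0.0033 for Pgd, which were not called.

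Among 13 genes of haem and iron handling, all of them tested, 5 were called higher and 6 lower, against 38% and 37.1% of all genes (median log2 fold change -0.18). Blvrb, a biliverdin reductase, rose 2.60-fold, from 48.8 ± 1.43 to 127 ± 5.94 CPM (SD, n = 3; log2 fold change 1.38, edgeR adjusted p = 2.26e-15). Blvra, the other biliverdin reductase of the list, fell from 31.1 ± 0.354 to 24.4 ± 0.594 CPM (SD, n = 3; log2 fold change -0.35, edgeR adjusted p = 3.8e-05). Slc48a1, a haem transporter, had a log2 fold change of 0.61. The transferrin receptor, Tfrc, fell from 129 ± 2.88 to 73.0 ± 4.81 CPM (SD, n = 3; log2 fold change -0.82). Ftl1, the ferritin light chain, had a log2 fold change of -0.37, but 58.4% of its 50-base stretches occur in other genes, mostly its pseudogenes. Fth1, the ferritin heavy chain, rose from 2893 ± 74.8 to 3983 ± 137 CPM (SD, n = 3; log2 fold change 0.46, edgeR adjusted p = 7.18e-10). Of its 50-base stretches, 1.59% occur in other genes.

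Of 20 tested genes of quinone, carbonyl and drug handling other than Nqo1, 9 were called higher and 9 lower, against 38% and 37.1% of all genes, and the median change was -0.061 on the log2 scale, which turned to 0.029 with upper quartile normalization. Aldh7a1, an aldehyde dehydrogenase, and Cyp1b1, a cytochrome P450, rose to 3.63 and 2.28 times the control level, with log2 fold changes of 1.86 and 1.19. The other aldehyde dehydrogenases tested, Aldh3a1 and Aldh3a2, fell. Aldh3a1 went from 889 ± 21.7 to 498 ± 15.5 CPM and Aldh3a2 from 89.5 ± 2.18 to 56.7 ± 2.75 CPM (SD, n = 3; log2 fold changes -0.84 and -0.66). Cbr1, a carbonyl reductase, fell from 11.8 ± 1.42 to 4.02 ± 0.464 CPM, and Ugdh, which makes UDP-glucuronate, from 294 ± 11.2 to 159 ± 4.94 CPM (SD, n = 3; log2 fold changes -1.54 and -0.88). Cbr3, the other carbonyl reductase of the list, rose from 19.7 ± 1.03 to 42.35 ± 2.89 CPM (SD, n = 3; log2 fold change 1.105).

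Slc7a11 is also a known target of ATF4, the factor of the amino acid and unfolded protein stress response, so genes of that response were set beside it. All 21 were tested, 14 were called higher and 4 lower, against 38% and 37.1% of all genes, and the median log2 fold change was 0.66, against 0.014 over all genes. Whether these lists differ from other genes was not tested. The list shares Slc3a2 and Chac1 with that of glutathione supply. Nupr1, a stress-induced chromatin protein, rose from 37.4 ± 0.976 to 146 ± 4.15 CPM (log2 fold change 1.96, edgeR adjusted p = 4.62e-18) and Vldlr, a lipoprotein receptor, from 0.729 ± 0.0793 to 28.4 ± 1.15 CPM (log2 fold change 5.28), whereas Atf3, itself a stress-induced factor, fell from 14.9 ± 0.574 to 1.32 ± 0.251 CPM (SD, n = 3; log2 fold change -3.48, edgeR adjusted p = 8.62e-15). Psat1, of serine synthesis, had a log2 fold change of -0.28.

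**Figure D5:**
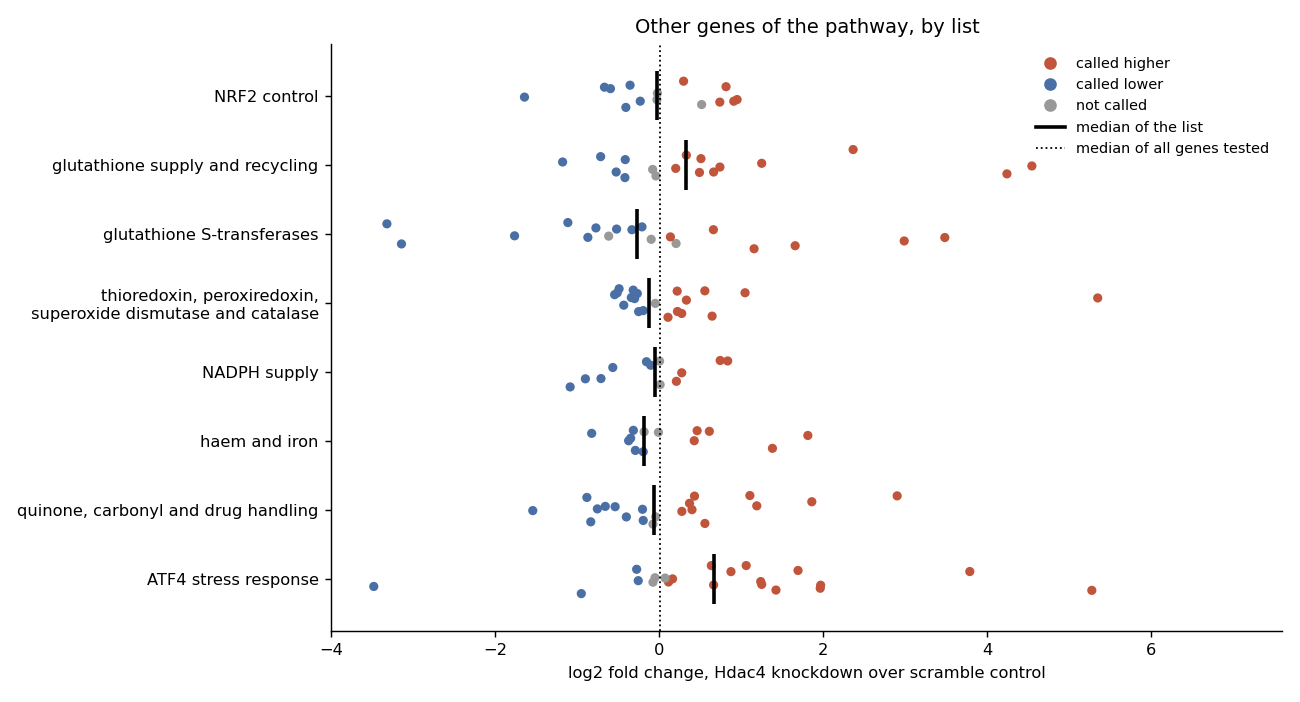
Log2 fold change, Hdac4 knockdown over control, of each tested gene of the 8 lists; red points were called higher, blue lower and grey not called, thick lines are list medians and the dotted line is the median of all genes tested (0.014). Most lists scatter to both sides of the dotted line, and the ATF4 list has the highest median (0.66), while the medians of the control, NADPH and quinone lists change sign with upper quartile normalization.

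Over the 8 lists together, 133 of 150 genes were tested, 60 were called higher and 55 lower, against 38% and 37.1% of all genes, and the median log2 fold change was -0.023.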

How the data were processed

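RNA-seq was performed on 3 control and 3 Hdac4 knockdown RNA samples (poly-A selected, kit without strand information). The authors deposited raw read counts per Ensembl gene for each library; the submitters' processing notes name STAR 2.7.3a, HTSeq 0.12.4 and the mm10 build, and the annotation is not given in the sources used here. Summary lines for reads outside genes were left out of the counts. Symbols, positions and exon lengths came from GENCODE M21 (GRCm38, the same build).

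Counts were normalized by TMM, filtered by filterByExpr and compared with the quasi-likelihood F test of edgeR 4.0.16 in R 4.3.3, with Benjamini-Hochberg adjustment over 14531 genes; a call is an adjusted p below 0.05. CPM are normalized counts per 1000000 counted reads and RPKM the same per kilobase of exon. SE is the log2 fold change over the root of F. Shared 50-base stretches were counted between the transcripts of different genes. Ratios used counts plus 0.5 and two-sided exact permutation tests (scipy 1.17.1), adjusted over 6 ratios. The test was also run on simulated data in which few genes were changed. It recovered 72.6%, 92.3% and 100% of planted log2 changes of 0.5, 1 and 2, with 6 false calls among 14251 genes. No smaller change and no broad difference between groups was planted, so the simulation does not cover small changes or the choice of normalization.

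The 10 genes and the lists were chosen with earlier results of these data known. Named genes of a list were the up to 2 highest and 2 lowest called genes with a mean of at least 100 counts and no overlap between groups, besides the 10 genes, Hdac4 and the partners in the ratios. Blvra, Fth1, Me1, Mafg, Gsta3, Gstt1, Gstt3, Aldh3a1, Aldh3a2, Cbr3 and the genes of the oxidative branch were named in addition, after their values were seen. Alternatives were DESeq2 size factors, upper quartile or library size scaling, other filters, DESeq2 1.42.0, limma-voom (limma 3.58.1), the replicate number as a block, stricter fold changes and omission of each library. Pairs of libraries in a group differed by more than sampling noise (chi-square per degree of freedom 3.23 to 8.36). Figures were drawn with matplotlib 3.10.9.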

Additional observations from a re-analysis of the deposited data

Results flagged for a closer look

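Reads that fell outside annotated exons, which no comparison of genes used, made up 4.79% ± 0.241 (SD, n = 3) of all reads in the count summaries of the knockdown libraries, above the 3.28% ± 0.122 (SD, n = 3) of the control libraries. Every knockdown library, at 4.64% to 5.07%, was above every control library, at 3.17% to 3.41%.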

How the results depend on the processing

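Of the 10 genes, 8 kept their direction and their call under the 8 other normalizations, filters, tests and the replicate block and on leaving out each library; Nqo1 ranged from 2.22 to 2.34 and Gsta4 from -2.24 to -2.12. Nfe2l2 lost its call with upper quartile normalization (-0.0053), library size alone (-0.038), at least 10 counts in every library (-0.057) and in 5 of 6 omissions of a library (-0.12 to -0.077 over the 6), leaving 2 to 3 genes called lower. Keap1, never called, changed sign with upper quartile normalization (0.044) and library size alone (0.011). The cause was not tested. Upper quartile normalization moved the median of all genes by 0.089. With a log2 fold change of at least 0.5, 1 gene was called lower, and 28 of the 133 tested genes of the lists. With at least 1, 3 genes were called higher and 1 lower, and 24 and 9 of these 133 genes. Of all genes tested, 16.5% were called higher and 10.6% lower with at least 1. With at least 10 counts in every library, 3 rather than 6 glutathione S-transferases were called higher, from fewer genes tested. Same-numbered libraries did not deviate together (correlations -0.0111, 0.027 and 0.0166), and 3 of 6 libraries correlated best with their own number. With the replicate block, Nfe2l2 was at -0.094 (adjusted p = 0.0401), 6 genes were called higher and 3 lower, and 60 and 56 genes of the lists. Slc7a11, with 386 counts in its lowest library, had the widest interval among the 10 genes, 1.82 to 2.11.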

Other observations

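Genes that respond to handling stress or to oxidant stress through other factors were also counted. The immediate early genes Fos, Egr1 and Jun were higher in the knockdown libraries, Fos from 9.94 to 20.7 CPM, Egr1 from 188 to 280 CPM and Jun from 193 to 213 CPM on average, whereas the heat shock genes Hspa1a and Hspa1b were lower, at 0.270 against 1.51 CPM and 27.5 against 38.1 CPM. All 5 passed the threshold of the edgeR test, and the groups did not overlap for any of them. Among all genes tested, 38% were called higher and 37.1% lower, and the groups did not overlap in 76.8%. Whether these 5 genes differ from other genes was not tested.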
